A study of Homo sapiens with 6 samples.

Results

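The genes of tryptophan and kynurenine metabolism were examined in RNA-seq data from BT-549 cells, an established triple-negative breast cancer (TNBC) cell line, with and without silencing of PBRM1. They were 10 genes, chosen by symbol from the 37887 rows of the count table: IDO1, IDO2 and TDO2, which open the pathway, AFMID, KMO, KYNU, HAAO and QPRT, which act downstream, and SLC7A5 and SLC3A2, the chains of a transporter that carries tryptophan into the cell. PBRM1 is a subunit of the PBAF chromatin remodeling complex. The sample titles name 3 control shRNA libraries (shCTL) and 3 PBRM1 shRNA libraries (shPBRM1). The treatment labels give DMSO for the shCTL libraries and doxycycline (DOX), the inducer of the tet-PBRM1shRNA vector, for the shPBRM1 libraries, and the series design states 0.1% DMSO and 500 ng/ml DOX for cells that all carry that vector. The titles and the design thus differ on the control, and which was used is not settled here. Effects of DOX therefore cannot be told apart from those of silencing. If the titles hold, the same is true of effects of the vector. The labels describe a single cell line.

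In shPBRM1 cells, IDO1 fell to 1.23% of its shCTL level, and TDO2, KMO, KYNU and QPRT fell to between 14.1% and 23.5%, whereas SLC7A5 was 1.61-fold higher. AFMID, the enzyme between the dioxygenases and KMO, and SLC3A2, the partner of SLC7A5, did not pass the test. Of the 10 genes, 8 had counts high enough to be tested, and IDO2 and HAAO did not.

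Tryptophan is an essential amino acid. Most of what is not built into protein is degraded by the kynurenine pathway, in which IDO1, IDO2 or TDO2 opens the indole ring, AFMID releases kynurenine, and KMO, KYNU and HAAO lead on to quinolinate, which QPRT feeds into NAD synthesis. IDO1 is known as an interferon-inducible gene in tumor cells and macrophages, TDO2 as a liver enzyme that some tumors express, and both the loss of tryptophan and the gain of kynurenine are known to restrain T cells.

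The letters upstream of these genes were examined because the members that changed could be compared by the response elements in them. RefSeq (GRCh38.p14) gave the 250 bases before an annotated start for 8 of the 10 genes, TDO2, AFMID, KMO, KYNU, HAAO, QPRT, SLC7A5 and SLC3A2, and not for IDO1 and IDO2. A set of 5 motifs, written 5′ to 3′, were searched on both strands: the interferon-stimulated response element (ISRE, GAAANNGAAA), the gamma-activated site (GAS, TTCNNNGAA), the element bound by ATF4 (CARE, TGATGNAA), the TATA box (TATAAA) and the core of the aryl hydrocarbon receptor element (XRE, GCGTG). Among 35116 such windows, 3.02% held the ISRE letters, 6.57% the GAS letters, 3.14% the CARE letters, 10.7% the TATA box letters and 32.2% the XRE letters. The windows of 3 genes that fell and of the gene that rose are shown, with that of WARS, the tryptophanyl-tRNA synthetase gene (RefSeq symbol WARS1), at its second annotated start. Capitals mark the ISRE, GAS, CARE and TATA box letters.
TDO2, chr4:155903446-155903695, plus strand: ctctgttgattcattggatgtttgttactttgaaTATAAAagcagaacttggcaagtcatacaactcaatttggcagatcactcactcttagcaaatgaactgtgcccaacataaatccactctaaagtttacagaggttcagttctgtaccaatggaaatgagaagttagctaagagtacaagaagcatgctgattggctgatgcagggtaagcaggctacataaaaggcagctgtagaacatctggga
KMO, chr1:241532128-241532377, plus strand: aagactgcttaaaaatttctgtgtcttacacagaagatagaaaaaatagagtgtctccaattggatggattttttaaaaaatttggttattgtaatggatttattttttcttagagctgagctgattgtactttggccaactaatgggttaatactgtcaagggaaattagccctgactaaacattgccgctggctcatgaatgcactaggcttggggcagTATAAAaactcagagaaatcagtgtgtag
KYNU, chr2:142877414-142877663, plus strand: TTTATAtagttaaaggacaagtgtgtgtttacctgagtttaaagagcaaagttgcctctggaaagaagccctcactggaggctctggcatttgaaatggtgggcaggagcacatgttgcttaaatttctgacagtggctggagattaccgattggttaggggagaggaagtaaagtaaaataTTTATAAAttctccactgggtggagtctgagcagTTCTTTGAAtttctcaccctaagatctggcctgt
SLC7A5, chr16:87869508-87869757, minus strand: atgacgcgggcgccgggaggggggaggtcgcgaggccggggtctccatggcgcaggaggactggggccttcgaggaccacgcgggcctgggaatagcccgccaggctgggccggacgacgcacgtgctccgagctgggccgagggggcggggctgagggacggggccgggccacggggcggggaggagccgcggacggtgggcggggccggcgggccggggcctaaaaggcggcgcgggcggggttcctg
WARS, chr14:100375348-100375597, minus strand: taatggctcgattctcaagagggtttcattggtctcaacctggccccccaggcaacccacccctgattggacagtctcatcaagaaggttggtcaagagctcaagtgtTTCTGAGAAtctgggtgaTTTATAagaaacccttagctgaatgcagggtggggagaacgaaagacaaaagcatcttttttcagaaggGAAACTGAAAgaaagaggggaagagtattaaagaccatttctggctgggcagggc

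The windows of these 8 genes, which leave out IDO1 and IDO2, held no ISRE or CARE letters. In KYNU, GAS letters began 34 bases before the start and TATA box letters began 250, 68 and 66 bases before it, the last pair overlapping on opposite strands. KMO held TATA box letters 29 bases before its start, and AFMID held them 31 bases before its start, while the match in TDO2 lay 216 bases before it. SLC3A2, with 3 annotated starts, held GAS letters 84 bases before one start and 208 bases before another. XRE letters lay 173 bases before the start of SLC7A5, which held none of the capitalized motifs, 15 bases before the start of AFMID, and 145 and 19 bases before one start and 125 bases before another start of SLC3A2. The windows of HAAO and QPRT held none of the 5 motifs. The WARS window shown held GAS letters, TATA box letters and ISRE letters, beginning 142, 124 and 55 bases before the start, whereas the window of the other annotated start of WARS held XRE letters 175 bases before it and no other motif. These matches describe letters only and show no binding.

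Counts were scaled with TMM factors to CPM, that is, to a common library total, and edgeR's quasi-likelihood test was run on 15450 genes, with p-values adjusted over all of them by the Benjamini-Hochberg method. Library totals were between 36429395 and 65096297 counts, at which 3 counts, taken as the floor of detection, equal 0.0461 to 0.0824 CPM. PBRM1 itself was at 157, 157 and 161 CPM in shCTL and at 43.3, 40.9 and 41.7 CPM in shPBRM1. Nothing in the labels beyond culture in triplicates says that the libraries came from separate cultures, so that p-values measure the spread between these libraries. In bulk RNA, fewer cells with a transcript and less transcript per cell cannot be told apart.

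At an adjusted p under 0.05, 5 of the 8 tested genes were lower in shPBRM1 and 1 was higher, where 33.2% of all tested genes were lower and 31.5% were higher. With a fold change over 2 as well, 5 were lower and 0 higher, against 9.68% and 2.87% of all tested genes. Normalized values of the groups did not overlap for 6 of the 8 genes, as for 68.3% of all tested genes. Log2 fold changes of the 8 genes ran from -6.30 to 0.69 around a median of -2.29, where the median of all tested genes was -0.008. Counted from the lowest log2 fold change, IDO1 stood at position 40 of 15450, TDO2 at 279, KMO at 334, KYNU at 379 and QPRT at 504.

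**Figure D1:**
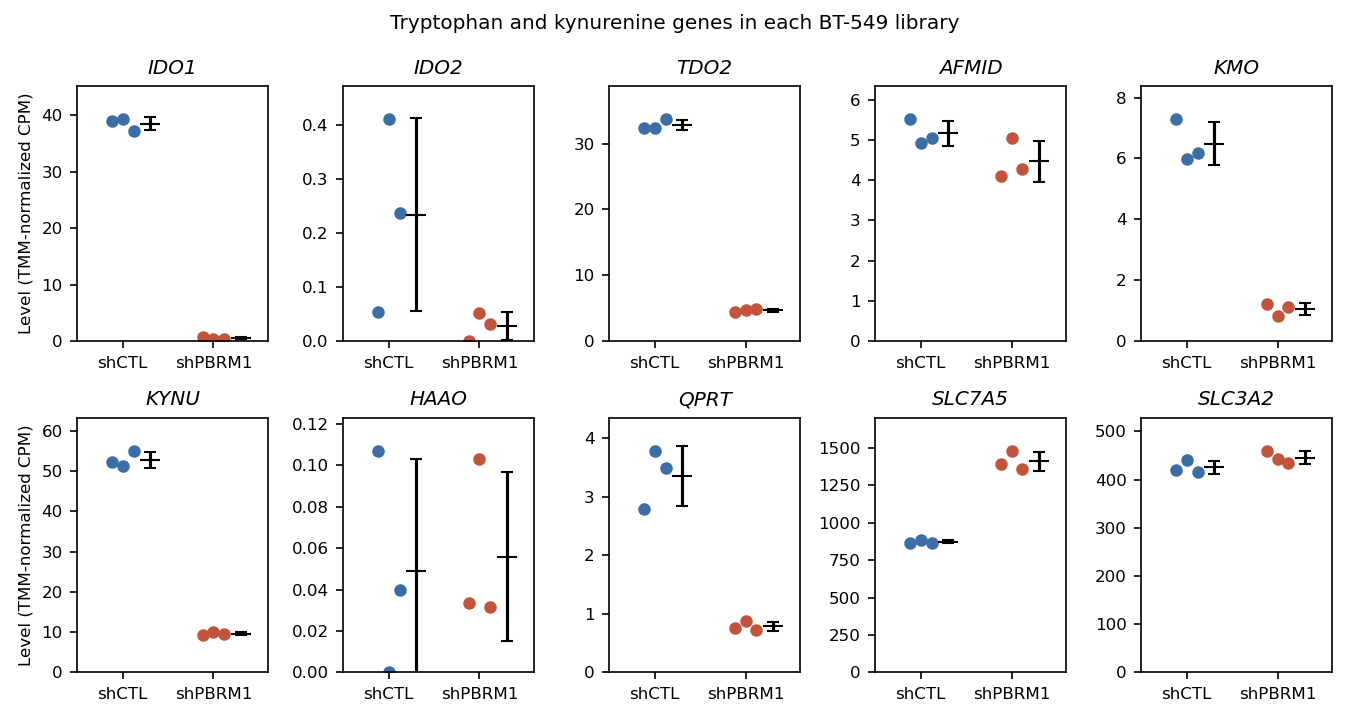
Levels of the 10 genes in each library, in TMM-normalized CPM on linear axes that start at 0 and differ between genes. Points are the 3 libraries of each group, and the black bars show the mean and SD, drawn no lower than 0. IDO1, TDO2, KMO, KYNU and QPRT were lower in every shPBRM1 library than in any shCTL library, SLC7A5 was higher, and the AFMID, SLC3A2 and HAAO values overlapped.

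**Figure D2:**
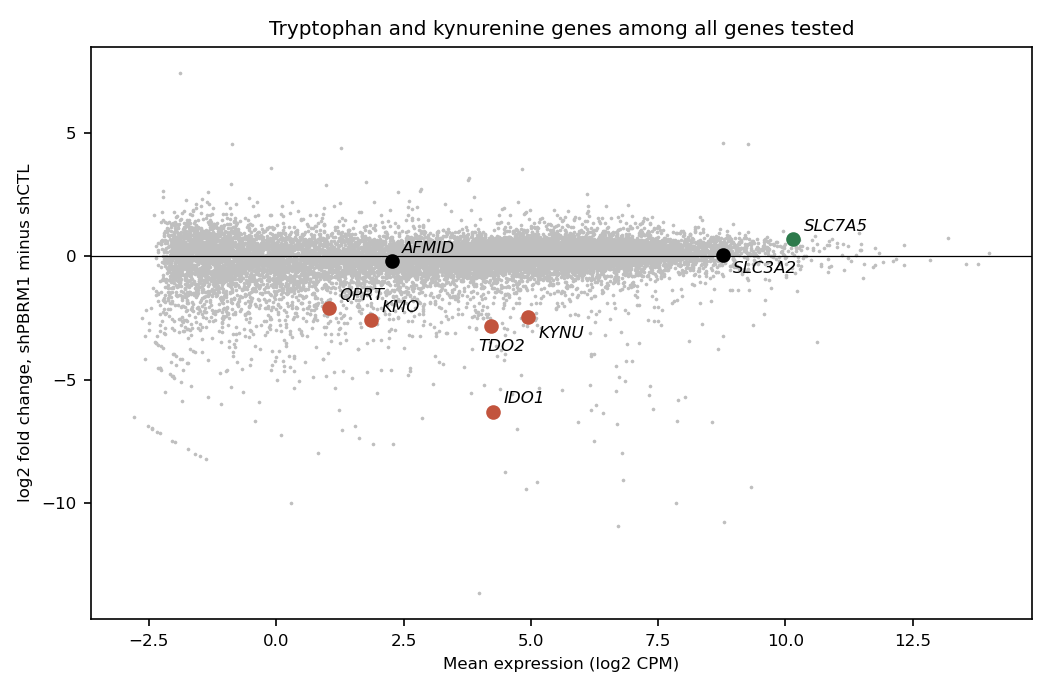
The log2 fold change (shPBRM1 minus shCTL) of the 15450 tested genes against their mean log2 CPM, in gray, with the 8 tested tryptophan and kynurenine genes in color. Red points were lower and the green point higher at an adjusted p under 0.05, and black points did not pass the test. IDO1 lies at -6.30 and SLC7A5 at 0.69.

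Transcripts of the dioxygenases that open the pathway included those of IDO1, on chromosome 8 from 39902275 to 39928444 in GENCODE v29 (GRCh38). IDO1 was at 39.0, 39.3 and 37.2 CPM in shCTL and at 0.716, 0.360 and 0.345 CPM in shPBRM1. The shCTL libraries were close to each other, and shPBRM1 replicate 1 was higher than the other two, with 43 counts against 14 and 22. The log2 fold change was -6.30 ± 0.32 (SE, n = 3; adjusted p = 7.59e-22, edgeR's quasi-likelihood test). All 3 silenced libraries remained above the floor of detection.

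TDO2 catalyzes the same reaction as IDO1 and lies on chromosome 4 from 155854738 to 155920406. The RefSeq start used for its upstream window lies inside this GENCODE span. Its level was 32.4, 32.4 and 33.7 CPM in shCTL, and 4.33, 4.75 and 4.82 CPM in shPBRM1. The values within each group were close and the groups lay far apart. This gave a log2 fold change of -2.83 ± 0.05 (SE, n = 3; adjusted p = 1.02e-19).

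IDO2, a paralog of IDO1 with weaker activity, neighbors it from 39934614 to 40016391 on chromosome 8. It had 2, 20 and 12 counts in shCTL and 0, 2 and 2 counts in shPBRM1, and was not tested, since 2 shCTL libraries and no shPBRM1 library reached the filter. One shCTL library was thus at the level of the silenced libraries, and the silenced libraries were all below the floor of 3 counts. Summed over libraries, 34 counts against 4 gave a depth-corrected ratio of 10.1, with an exact 95% interval from 3.62 to 39.3 that covers counting error only. Among values from 1 to 10, 61.6% to 62.7% were even in each library, against 49.4% to 50.8% among values from 500 to 5000, so that single counts at this level may not be independent.

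Because the genes differ in length, their levels were compared per kilobase of annotated exon. The summed level of IDO1, IDO2 and TDO2 was 18.1, 18.3 and 17.9 CPM per kilobase in shCTL and 1.04, 1.02 and 1.03 CPM per kilobase in shPBRM1. It was lower in each shPBRM1 library, with a difference of -4.13 on the log2 scale, or 17.5-fold (exact two-sided permutation test, p = 0.1, the smallest that 3 against 3 libraries allow). IDO1 made up 66.0%, 65.8% and 63.9% of the sum in shCTL and 21.1%, 10.8% and 10.3% in shPBRM1. TDO2 made up 33.9%, 33.7% and 35.8% in shCTL and 78.9%, 88.1% and 89.0% in shPBRM1. The leading transcript was therefore IDO1 in each shCTL library and TDO2 in each shPBRM1 library on this length scale.

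The order of IDO1 and TDO2 in shCTL depended on the length used. The annotated exons of TDO2 sum to 5.26 kb, whereas its longest coding transcript has 1.70 kb, and for IDO1 these lengths are 3.26 and 2.10 kb. With the length of the longest coding transcript, IDO1 was at 18.4 ± 0.536 and TDO2 at 19.3 ± 0.428 CPM per kilobase (SD, n = 3), and IDO1 made up 47.1% to 49.4% of the sum in shCTL and 5.47% to 11.8% in shPBRM1. The IDO1 to TDO2 count ratio needs no length. On the log2 scale it was 0.27, 0.28 and 0.15 in shCTL and -2.60, -3.72 and -3.80 in shPBRM1, without overlap, a difference of -3.60 (exact two-sided permutation test, p = 0.1, the smallest possible).

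**Figure D3:**
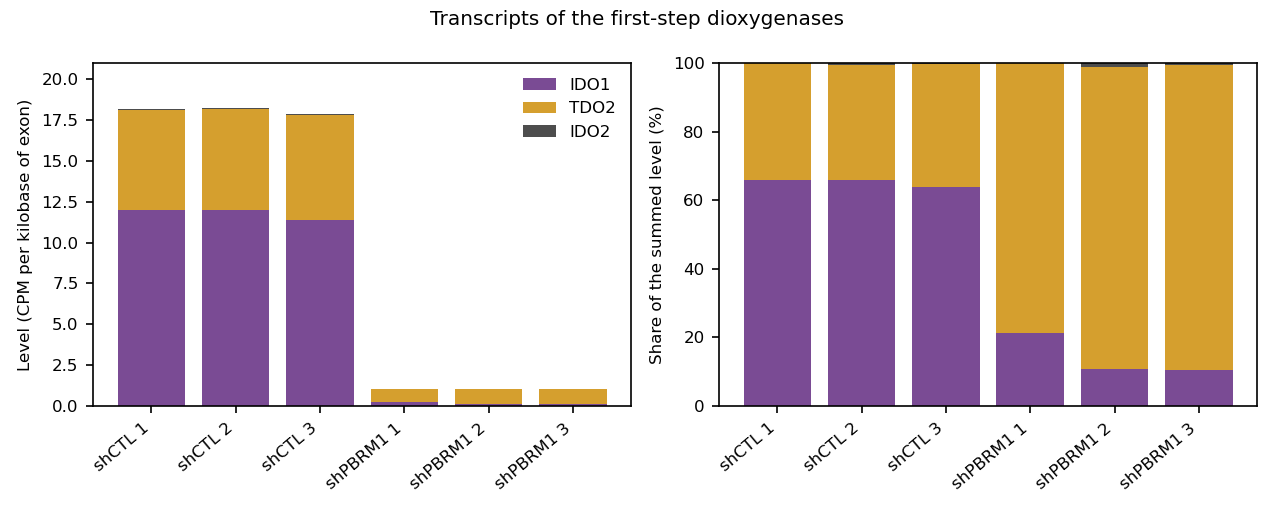
Left, levels of IDO1, TDO2 and IDO2 in CPM per kilobase of annotated exon, stacked for each library. Right, their share of the sum in percent. The stacks reach 17.9 to 18.3 in shCTL and 1.02 to 1.04 in shPBRM1, and the IDO1 share fell from between 63.9% and 66.0% to between 10.3% and 21.1%.

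AFMID, the arylformamidase that hydrolyzes N-formylkynurenine to kynurenine, lies on chromosome 17 from 78187317 to 78207701. It was at 5.52, 4.92 and 5.06 CPM in shCTL and at 4.10, 5.06 and 4.28 CPM in shPBRM1. The groups overlapped through shPBRM1 replicate 2. The log2 fold change was -0.21 ± 0.10 (SE, n = 3; adjusted p = 0.111, edgeR's quasi-likelihood test), with a 95% interval from -0.54 to 0.12. Without shPBRM1 replicate 2 it was -0.29, with an adjusted p of 0.0458.

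KMO, the mitochondrial kynurenine hydroxylase, lies on chromosome 1 from 241532134 to 241595642. Its level was 7.29, 5.99 and 6.17 CPM in shCTL and 1.23, 0.822 and 1.10 CPM in shPBRM1. The lowest shCTL value was well above the highest shPBRM1 value. The log2 fold change was -2.59 ± 0.19 (SE, n = 3; adjusted p = 5.51e-13). OPN3, on the opposite strand, shares 28.4% of the KMO exon bases, and had 289, 347 and 352 counts in shCTL and 731, 535 and 780 counts in shPBRM1. Whether the counting used the strand is not given in the sources used here, so that the share of reads from OPN3 in the KMO counts was not tested.

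KYNU, the kynureninase that cleaves kynurenine and 3-hydroxykynurenine, lies on chromosome 2 from 142877498 to 143055832. It was at 52.3, 51.2 and 55.1 CPM in shCTL and at 9.25, 10 and 9.59 CPM in shPBRM1. Each group was tight and the separation wide, with a log2 fold change of -2.46 ± 0.05 (SE, n = 3; adjusted p = 3.16e-20). The KMO to KYNU log2 count ratio differed by -0.18 between the groups (exact two-sided permutation test, p = 0.5), with overlapping values.

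HAAO, which makes the quinolinate precursor from 3-hydroxyanthranilate, lies on chromosome 2 from 42767089 to 42792593. Its counts were 4, 0 and 2 in shCTL and 2, 4 and 2 in shPBRM1. Both groups were near the floor of detection, so that a difference was not detectable at this depth.

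QPRT, quinolinate phosphoribosyltransferase, lies on chromosome 16 from 29679008 to 29698699. Its level was 2.79, 3.79 and 3.49 CPM in shCTL and 0.766, 0.874 and 0.722 CPM in shPBRM1. The groups did not overlap, and the log2 fold change was -2.11 ± 0.15 (SE, n = 3; adjusted p = 7.77e-10). Relative to KYNU, the log2 count ratio of QPRT was -4.23, -3.759 and -3.982 in shCTL and -3.593, -3.52 and -3.731 in shPBRM1. It was 0.38 higher in shPBRM1, and the groups did not overlap but nearly touched (exact two-sided permutation test, p = 0.1, the smallest possible). The shPBRM1 ratios rest on 46, 34 and 46 QPRT counts. AC009086.2, on the same strand, shares 15.7% of the QPRT exon bases, and its symbol is not among the rows.

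SLC7A5 encodes LAT1, the light chain that carries tryptophan, other large neutral amino acids and kynurenine. It lies on chromosome 16 from 87830023 to 87869488. SLC7A5 was at 867, 885 and 866 CPM in shCTL and at 1390, 1480 and 1360 CPM in shPBRM1. All silenced libraries were above all controls. The log2 fold change was 0.69 ± 0.04 (SE, n = 3; adjusted p = 1.07e-13), with a 95% interval from 0.54 to 0.84 that lies below a 2-fold change.

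SLC3A2, on chromosome 11 from 62856102 to 62888875, encodes CD98, the heavy chain that brings LAT1 to the cell surface. It was at 421, 441 and 415 CPM in shCTL and at 460, 442 and 434 CPM in shPBRM1. The groups overlapped, and the log2 fold change of 0.06 ± 0.04 (SE, n = 3) did not pass the test (adjusted p = 0.178), with a 95% interval from -0.04 to 0.17. The log2 count ratio of SLC7A5 to SLC3A2 was 1.04, 1.0 and 1.06 in shCTL and 1.59, 1.74 and 1.65 in shPBRM1. It did not overlap and differed by 0.63, or 1.54-fold (exact two-sided permutation test, p = 0.1, the smallest possible). This ratio is taken within a library and does not depend on scaling.

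Per kilobase of annotated exon, SLC7A5 (184 CPM per kilobase) and SLC3A2 (82.3) had the highest levels in shCTL, followed by IDO1 (11.8), TDO2 (6.24), KYNU (3.0), AFMID (1.28), KMO (1.09), QPRT (0.921), IDO2 (0.0527) and HAAO (0.0180). In shPBRM1, the levels were 297 for SLC7A5, 86.0 for SLC3A2, 1.11 for AFMID, 0.880 for TDO2, 0.546 for KYNU, 0.216 for QPRT, 0.177 for KMO, 0.145 for IDO1, 0.0205 for HAAO and 0.00621 for IDO2. Library values of neighbors in this order overlapped between AFMID and KMO and between KMO and QPRT in shCTL, between QPRT and KMO and between KMO and IDO1 in shPBRM1, and between IDO2 and HAAO in both groups. By group means on annotated exon length, AFMID moved from the sixth place to the third and IDO1 from the third to the eighth. With the longest coding transcript as the length, SLC7A5 (192) and SLC3A2 (192) were level in shCTL, and KMO and QPRT changed places. On that length AFMID moved from the sixth place to the fourth, behind TDO2 (2.72 against 2.59 CPM per kilobase in shPBRM1), and IDO1 from the fourth to the seventh. Library values on that length overlapped between AFMID and TDO2 in shPBRM1, and between IDO1 and its neighbors QPRT and KMO there. Those of KMO and QPRT also overlapped in shCTL, so that these places are not resolved. The place of KYNU also depends on its length, the greatest of the 10 genes (17.6 kb of annotated exon, longest coding transcript 15.3 kb). Without division by length, KYNU (52.9 CPM) was above IDO1 (38.5 CPM) and TDO2 (32.8 CPM) in shCTL.

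The genes that surround this route were taken from 4 further lists, of other kynurenine branch enzymes, NAD synthesis beyond QPRT, the serotonin and indole branch, and other amino acid carriers. Of 37 listed genes, 36 were in the table and 22 were tested. In shPBRM1, 6 were lower, 7 were higher and 9 did not pass the test, where 33.2% of all tested genes were lower and 31.5% higher. Over 2-fold, 4 were lower and 0 higher, against 9.68% and 2.87% of all tested genes. Their median log2 fold change was 0.05, against -0.008 for all tested genes.

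Of 6 tested kynurenine branch enzymes, 1 was lower and 1 higher, beside 33.2% and 31.5% of all tested genes. Neither change reached 2-fold. KYAT3, which converts kynurenine to kynurenic acid, was at 21.7, 21.9 and 21.8 CPM in shCTL and at 18.0, 16.7 and 17.2 CPM in shPBRM1 (log2 fold change -0.33 ± 0.03, SE, n = 3; adjusted p = 6.89e-05). GOT2, the mitochondrial aspartate aminotransferase, which also acts on kynurenine, rose from 107 ± 1.8 to 116 ± 3.42 CPM (SD, n = 3; log2 fold change 0.11; adjusted p = 0.00578). With library size only as the scaling the GOT2 value was 0.06 and no longer passed (adjusted p = 0.121).

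Among NAD synthesis genes, 3 of 7 tested were lower and 2 higher, beside 33.2% and 31.5% of all tested genes. NAMPT, the rate-limiting enzyme of NAD salvage from nicotinamide, was at 1730, 1690 and 1770 CPM in shCTL and at 660, 639 and 669 CPM in shPBRM1. All silenced libraries were far below the controls, with a log2 fold change of -1.40 ± 0.03 (SE, n = 3; adjusted p = 6.86e-20). NMNAT2, a cytosolic enzyme of the final step of NAD synthesis, was at 24.6, 21.6 and 26.0 CPM in shCTL and at 11, 9.84 and 9.56 CPM in shPBRM1 (log2 fold change -1.25 ± 0.10, SE, n = 3; adjusted p = 2.25e-12). The transcripts of QPRT and of NAMPT were thus both lower, and NAD itself was not measured. NAPRT was the third lower gene of the list, with a log2 fold change of -0.347. NADK and NMNAT1 were the 2 that were higher, with log2 fold changes of 0.375 and 0.22. NAPRT, NADK and NMNAT1 were named after their values were seen.

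In the serotonin and indole branch, 1 of 8 genes in the table had enough counts for the test. IL4I1, a secreted oxidase of aromatic amino acids including tryptophan, was at 10.2, 9.71 and 9.85 CPM in shCTL and at 4.15, 4.01 and 3.88 CPM in shPBRM1. The groups did not overlap, with a log2 fold change of -1.30 ± 0.03 (SE, n = 3; adjusted p = 2.51e-11).

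Of 8 tested carriers other than SLC7A5 and SLC3A2, 1 was lower and 4 were higher, beside 33.2% and 31.5% of all tested genes. SLC43A1, known as LAT3, a carrier of large neutral amino acids, was at 11.3, 10.7 and 9.81 CPM in shCTL and at 2.98, 2.98 and 3.29 CPM in shPBRM1. It fell without overlap, with a log2 fold change of -1.77 ± 0.08 (SE, n = 3; adjusted p = 4.14e-13), in the direction opposite to SLC7A5. The 4 carriers that were higher, SLC36A4, SLC7A11, SLC7A6 and SLC1A5, had log2 fold changes of 0.67, 0.55, 0.46 and 0.12, and were named after their values were seen.

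**Figure D4:**
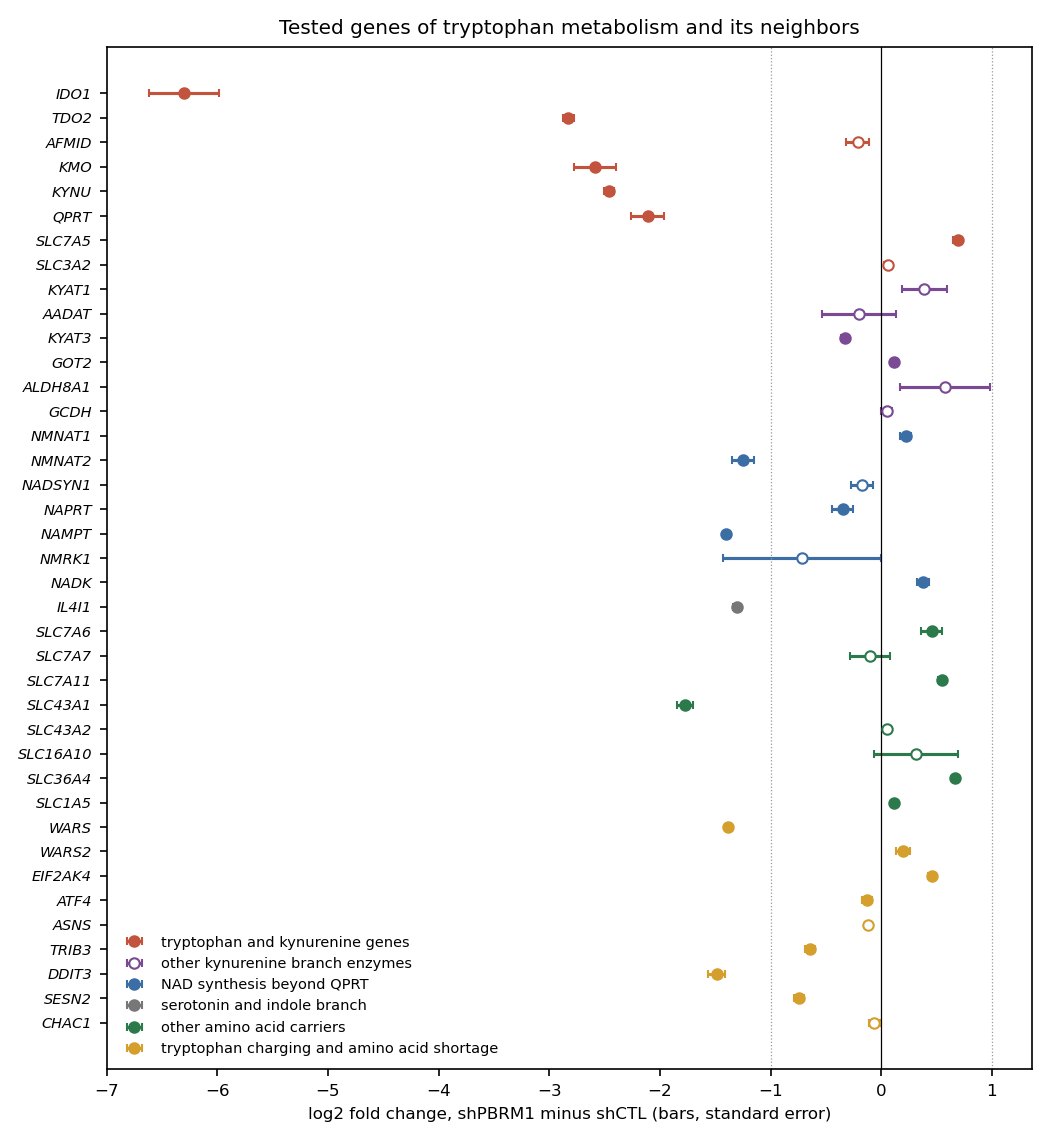
The log2 fold change (shPBRM1 minus shCTL) of each tested gene of the tryptophan and kynurenine genes, of the 4 neighboring lists and of the list on tryptophan charging and amino acid shortage, with bars for the SE (n = 3 per group). Filled points passed an adjusted p under 0.05, open points did not, and dotted lines mark 2-fold. The points below the lower dotted line range from -6.30 for IDO1 to -1.25 for NMNAT2, and no point lies above the upper one.

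Genes that use tryptophan for protein synthesis or respond to a shortage of amino acids were listed next. Of 9 tested, 5 were lower and 2 higher (33.2% and 31.5% of all tested genes), with a median log2 fold change of -0.13. WARS was at 767, 784 and 791 CPM in shCTL and at 304, 298 and 295 CPM in shPBRM1. DDIT3, which encodes the stress factor CHOP, was at 67.0, 72.9 and 75.3 CPM in shCTL and at 26.2, 23.7 and 26.7 CPM in shPBRM1 (log2 fold change -1.49 ± 0.07, SE, n = 3; adjusted p = 4.37e-17). Both genes fell in every silenced library.

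The 9 tested regulators of IDO1 include the interferon gamma receptor chains, JAK kinases, IRF1 and PTGS2. Of these 9 genes, 5 were lower and 1 higher, beside the same 33.2% and 31.5% of all tested genes. Their median log2 fold change was -0.18. IRF1, an interferon-induced transcription factor, was at 113, 114 and 113 CPM in shCTL and at 38.3, 38.5 and 35.5 CPM in shPBRM1 (log2 fold change -1.60 ± 0.04, SE, n = 3; adjusted p = 2.83e-20). PTGS2, the inducible cyclooxygenase, had 26, 66 and 52 counts in shCTL and 2, 2 and 12 counts in shPBRM1, and a log2 fold change of -3.38 ± 0.57 (SE, n = 3; adjusted p = 1.02e-06), which became -4.59 without shPBRM1 replicate 3. It entered the test through the shCTL libraries alone, since no shPBRM1 library reached the filter. IRF8, also on this list, had no count in any library and was not tested.

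The aryl hydrocarbon receptor is a transcription factor for which kynurenine is a ligand. Of 6 tested genes of this receptor and its targets, 2 were lower and 3 higher, beside 33.2% and 31.5% of all tested genes. None changed over 2-fold, and the median log2 fold change was 0.15. AHR, the receptor itself, was at 145, 138 and 139 CPM in shCTL and at 99.4, 110 and 113 CPM in shPBRM1 (log2 fold change -0.39 ± 0.06, SE, n = 3; adjusted p = 2.14e-08). TIPARP, a target that restrains the receptor, was at 201, 201 and 204 CPM in shCTL and at 285, 279 and 282 CPM in shPBRM1 (log2 fold change 0.48 ± 0.01, SE, n = 3; adjusted p = 5.05e-11). The groups did not overlap for either gene, and the directions were opposite.

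KMO, KYNU and IDO1 are also known from macrophages and TDO2 from hepatocytes, and markers of these cells were examined beside them. The 6 leukocyte and macrophage markers summed to 1.74 to 1.83 CPM in shCTL and 1.18 to 1.54 CPM in shPBRM1. Of 3 tested, PTPRC was lower (log2 fold change -2.55; adjusted p = 6.35e-06; it reached the filter in the shCTL libraries only) and CD14 higher (1.0; adjusted p = 0.0160). CD3E had no count in any library, and LYZ had 1 count in shPBRM1 replicate 3 and no other. The 4 hepatocyte markers summed to 1.09 to 1.69 CPM in shCTL and 0.916 to 1.35 CPM in shPBRM1, and ALB had at most 18 counts. The part of these markers in the results was not tested. In shCTL, the marker sums are below the means of KYNU (52.9 CPM), IDO1 (38.5 CPM), TDO2 (32.8 CPM) and KMO (6.48 CPM). In shPBRM1, the leukocyte and macrophage sum is below the mean of KYNU (9.62 CPM). It is above the means of IDO1 (0.474 CPM) and KMO (1.05 CPM) there. The hepatocyte sum in shPBRM1 is below the mean of TDO2 (4.63 CPM). The mesenchymal markers VIM, FN1, ZEB1 and CDH2 had means of 135 CPM or more in both groups. Of these, 2 were lower and 2 higher in shPBRM1, beside 33.2% and 31.5% of all tested genes. Of the luminal receptors that are low in TNBC, ESR1 had at most 2 counts and PGR at most 12 counts. ERBB2 was at 50.3 to 52.4 CPM in shCTL and 49.6 to 50.5 CPM in shPBRM1 (adjusted p = 0.469).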

How the data were processed

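RNA-seq libraries of BT-549 cells (3 shCTL and 3 shPBRM1) were made with a TruSeq Stranded mRNA kit. The values the authors deposited are raw read counts for each gene symbol, with no normalization. The submitters' processing notes name CASAVA 1.8.2, STAR 2.7.9a, featureCounts, DESeq2 1.24.0 and GRCh38.p7, and the annotation and strand setting are not given in the sources used here. The 3 control columns carry the cell line name and numbers only, and were matched to shCTL as the columns that name no PBRM1 shRNA, with the last number as the replicate. Of 37887 rows, 12608 held no count, and total counts were 36429395 to 65096297 per library. The floors and the interval of the IDO2 ratio cover counting error only. Libraries of a group differed by more than sampling noise (chi-square per degree of freedom 4.92 to 24.9).

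Counts were normalized by TMM and tested with edgeR 4.0.16 in R 4.3.3 (filterByExpr with a minimum count of 10, quasi-likelihood test, Benjamini-Hochberg adjustment over 15450 genes). SEs and the 95% intervals of log2 fold changes use the spread of log2 CPM with a prior count of 2. Gene positions and lengths are those of GENCODE v29, matched by symbol, and upstream sequences those of RefSeq. The 10 genes and all lists were chosen with earlier results of these data known. The genes named were the 10 genes, PBRM1, WARS, IRF1 and, from each other list, those past an adjusted p of 0.05 and 2-fold, or, where a list had none, its 2 genes with the smallest adjusted p. Marker genes stand outside this rule.

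Same-numbered libraries of the groups shifted together for replicates 1 and 2 (correlations 0.734 and 0.593 over 5622 genes with a mean log2 CPM above 5). For shPBRM1 replicate 3 the correlation was 0.419 with shCTL replicate 3 and 0.464 with shCTL replicate 2. Libraries with unlike numbers gave -0.671 to 0.464, and the pairing comes from the numbers in the sample titles. Alternatives were DESeq2 1.42.0, RLE factors, library size only, each library left out, the replicate block, no filter and a minimum mean of 50 counts. The length of the longest coding transcript was added after the data were seen. Simulated counts were used to check the tests: edgeR recovered 200 of 200 changed genes among 15383, with 14 false calls. Each changed gene was well above the floor of detection and was given a change of well over 2-fold. All other genes were left unchanged, and no replicate effect was simulated. The check therefore does not cover smaller changes, or data in which as many genes are called as here. ASMT was not analysed here, and 1 gene of the list of IDO1 regulators is not reported here and was left out of its counts.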

Additional observations from a re-analysis of the deposited data

How the results depend on the processing

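IDO1, TDO2, KMO, KYNU and QPRT stayed lower and SLC7A5 higher, past an adjusted p of 0.05, under DESeq2, RLE factors, library size only, both filters, the replicate block and each library left out, and SLC3A2 passed in none of these. Between 5 and 7 of the 10 genes were lower across these alternatives, and 1 was higher in each. IDO2 passed with DESeq2 (log2 fold change -3.20), with no filter on low counts (-3.14), and without shCTL replicate 1 or any one shPBRM1 library (-3.73 to -2.55), since these settings admit it to the test. With a library left out, IDO2 enters through the shCTL libraries alone, so that these passes add no support. Leaving out shCTL replicate 1 also removes the control with 2 IDO2 counts. HAAO, tested with no filter and by DESeq2, passed in neither (adjusted p = 0.938 and 0.937). With library size only, 4 in place of 7 genes of the neighboring lists were higher. That scaling moves the median of all genes from -0.008 to -0.056 and the share of lower genes among those called from 51.4% to 56.6%. The summed level of IDO1, IDO2 and TDO2 differed by -4.18 with library size only, -3.80 with no division by length and -3.67 with the length of the longest coding transcript, which give TDO2 another weight or scale the libraries differently. With the replicate block, as a paired analysis, 5 of the 10 genes were lower and 1 higher, 7 neighboring genes were lower in place of 6, and no call among the 10 genes changed. Depth limits IDO2, HAAO and PTGS2, whose counts were 12 or fewer in the silenced libraries. AFMID passed only without shPBRM1 replicate 2.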
